A study of Mus musculus with 6 samples.

Results

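The p53 target genes described here are 32 genes, found by symbol among the 24453 gene rows of 6 RNA-sequencing libraries, and all 32 had a row. They comprise Trp53, which encodes p53, its inhibitors Mdm2 and Mdm4, and genes that p53 is known to activate. The libraries were made from sorted skin cells of mouse pups at postnatal day 0. Of these, 3 were labelled Ring1a/b 2KO, with the genotype Ring1a-/- Ring1b-/-, and 3 were labelled control, with no allele named. RING1A and RING1B are the ubiquitin ligases of Polycomb repressive complex 1, which keeps developmental genes silent. The labels name no Cre driver or strain, and do not say whether libraries came from separate animals, so p-values measure the spread between these libraries, which may be technical. The labels call the cells hair follicle cells, while the attached protocol describes a gate for interfollicular epidermis, so the sorted population is not settled by the labels.

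The transcription factor p53 is held at a low level because MDM2 marks it for destruction. DNA damage, replication stress or the ARF protein, encoded by Cdkn2a, relieves this, and p53 then activates genes of cell cycle arrest, DNA repair, metabolism and death, along with Mdm2 and other genes that restrain it. Most of this control acts on the p53 protein, which RNA sequencing does not measure. In epidermis p53 is known for its response to ultraviolet light, and its relative p63, encoded by Trp63, maintains the basal keratinocyte.

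Of the 30 p53 target genes tested, 4 rose in the 2KO libraries (13.3%, where 6.61% of all tested genes were called higher) and none fell. They were Zmat3, which encodes an RNA-binding zinc finger protein, Ccng1, which encodes cyclin G1, Polk, which encodes a DNA polymerase that copies past damaged bases, and Tnfrsf10b, which encodes a death receptor. Their fold changes of 2KO over control were 3.33, 2.99, 2.74 and 1.95. Trp53 itself, Mdm2 and most genes of apoptosis and repair did not pass. The test was edgeR's quasi-likelihood test with Benjamini-Hochberg adjustment over the 14972 genes tested, with 0.05 as the threshold on the adjusted p.

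A p53 binding site consists of a pair of decamers of a loosely fixed sequence, with up to 13 bases between them. To show where such letters occur near the members, RefSeq promoter windows of the GRCm38.p6 build, from 250 bases before to 50 bases after a gene's start, were searched for the p53 consensus with at most 1 mismatch in its 20 letters. The consensus reads the same on both strands. Of the 32 members 25 had a window, and 4 of these, Ccng1, Polk, Bax and Rps27l, had such a match. Counted by window, the members had 34 windows, 4 of them with a match. Of all 32851 windows 1.09% had one. Ccng1 and Polk are among the members that rose, while Bax and Rps27l did not pass. The 4 matches are shown because they are the only ones among the members, with both decamers in capitals and, where no annotated exon is crossed, flanking bases in lower case. Each of the 4 differs from the consensus at 1 of its capital letters. In Polk and Bax a single lower-case c between capitals separates the decamers, while in Ccng1 and Rps27l they adjoin.
Ccng1 (chr11:40755422-40755521, minus strand, upstream of the annotated gene): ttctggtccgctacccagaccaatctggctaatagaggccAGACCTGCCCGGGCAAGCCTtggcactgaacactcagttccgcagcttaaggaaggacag
Polk (chr13:96519358-96519437, minus strand, in an intron, before an internal start): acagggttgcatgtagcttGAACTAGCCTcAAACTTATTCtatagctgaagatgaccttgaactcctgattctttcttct
Bax (chr7:45467050-45467148, minus strand, upstream of Bax and in an intron of Gm45808): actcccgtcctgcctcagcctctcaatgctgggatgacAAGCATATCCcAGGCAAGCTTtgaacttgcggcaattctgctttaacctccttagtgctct
Rps27l (chr9:66946296-66946315, plus strand, in an intron of Rps27l): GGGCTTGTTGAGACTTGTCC
A match is a description of these letters and says nothing of binding in these cells. Bases outside the windows, such as most introns, were not searched, so a member without a match may hold a site elsewhere. Zmat3, Tnfrsf10b, Trp53inp1, Pmaip1, Xpc, Ddb2 and Rrm2b had no window in the table.

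Total counts per library were between 24.8 M and 29.9 M (mega) in the 2KO group and between 28.2 M and 30.8 M in the control group. One count corresponded to between 0.0323 and 0.0392 CPM (counts per M library counts, with library sizes scaled by TMM, the trimmed mean of M-values). Neither targeted gene separated 2KO from control. Ring1 was at 1.84, 7.34 and 14.1 CPM in the 2KO libraries and at 19.5, 22.4 and 3.37 CPM in the control libraries, so that control replicate 3, below 2 of the 2KO libraries, and 2KO replicate 3, near the control mean of 15.1 CPM, both went against their labels. Rnf2 was at a mean of 77.0 CPM in 2KO and 64.7 CPM in control libraries, and the removed exons are not named. The groups are therefore called by their labels, and each direction is one between libraries so labelled. Keratinocyte genes were high in all 6 libraries, with Krt14 at means of 3555 CPM in 2KO and 2662 CPM in control libraries. Of 11 hair follicle genes 4 fell in 2KO libraries (Shh, Krt25, Krt71 and Krt27), and Ly6a, which encodes the Sca1 antigen of the described gate, was at most 7.28 CPM in any library. Xist, a marker of female cells, was at least 4555 CPM in 2KO replicates 1 and 2 and in control replicate 3 and at most 10.4 CPM in the other 3 libraries, so both groups mixed the sexes.

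Of the 32 members 30 passed the filter on low counts and were tested. The other 2, Gdf15 and Abcb1a, were near 0 in both groups. Gdf15, which encodes a secreted stress factor, had 0 counts in each 2KO library and 1, 0 and 1 counts in control replicates 1, 2 and 3. At these depths a count of 0 allows up to 0.118 CPM in a library, and this limit covers counting error only. Abcb1a, which encodes a drug efflux pump, had 2, 0 and 5 counts in 2KO and 5, 2 and 0 counts in control libraries, and it may share reads with its close copy Abcb1b. No fold is given for either gene.

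Members called higher in 2KO were 4 of 30 (13.3%), where 6.61% of all tested genes were called higher. None was called lower, where 2.42% of all genes were. At an unadjusted p under 0.05, 9 members were higher and 1 (Btg2) lower. Of all 14972 tested genes 1895 were higher and 1332 lower at that level. In either direction 13.3% of members and 9.02% of all tested genes passed. DESeq2 called 7 members higher and 1 lower, and limma-voom called the same 4 higher and Btg2 lower. Over all tested genes DESeq2 called 1415 higher and 733 lower and limma-voom 1031 and 402, where the main fit called 989 and 362. When replicate 3 of each group was left out, the only member called was Ccng1.

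The median log2 fold change was 0.35 over the 30 tested members and -0.016 over all tested genes. The members' median was 0.56 without 2KO replicate 3, 0.54 without control replicate 1 and 0.26 without 2KO replicate 1. Of the members 19 had a value above 0 and 11 a value below 0, where 7282 and 7690 of the 14972 tested genes did. The 2 groups of libraries did not overlap for 10 of the 30, with 8 higher and 2 lower in 2KO. This 33.3% stands beside 28.4% of all tested genes. By direction, 26.7% of members lay apart and higher, where 15.2% of all tested genes did, and 6.67% lay apart and lower, where 13.1% did. The mean of log2(CPM + 1) over the 32 members was 5.14, 5.22 and 5.16 in 2KO replicates 1, 2 and 3, and 4.89, 4.76 and 4.77 in the control replicates.

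**Figure D1:**
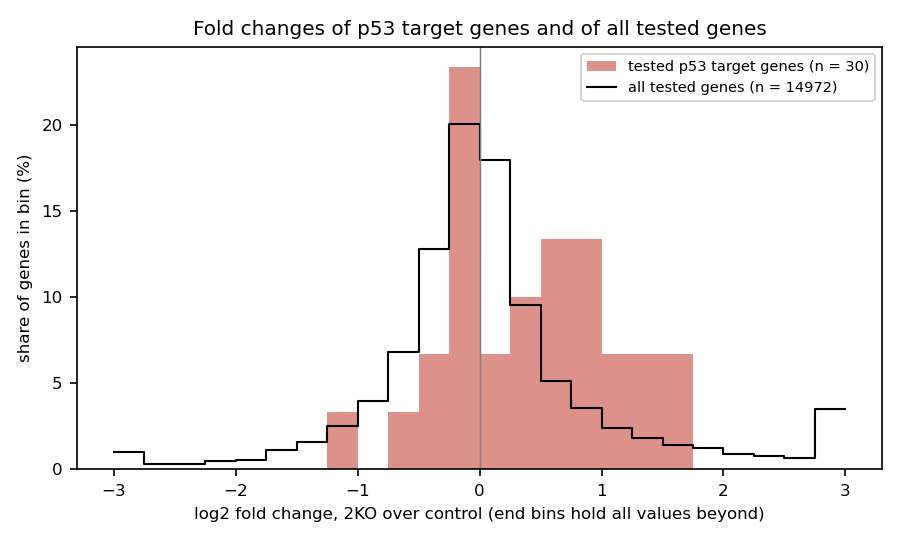
Log2 fold change of 2KO over control (x axis, bins of 0.25, the end bins holding all values beyond) against the share of genes in each bin (y axis), as red bars for the 30 tested p53 target genes and as a black line for all 14972 tested genes. The members' values lie between -1.19 and 1.74, with their median at 0.35, while that of all genes is at -0.016.

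Members differed widely in level. Per length of annotated exons, averaged over the 6 libraries, Trp53 was the highest at 76.3 CPM per kb, followed by Btg2 (59.6), Ccng1 (46.2), Zmat3 (30.7) and Mdm4 (30.5). Among the tested members the lowest levels per length were those of Rrm2b (1.20 CPM per kb) and Aen (1.86). On the CPM scale 22 of the 30 tested members lay above the median of tested genes.

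**Figure D2:**
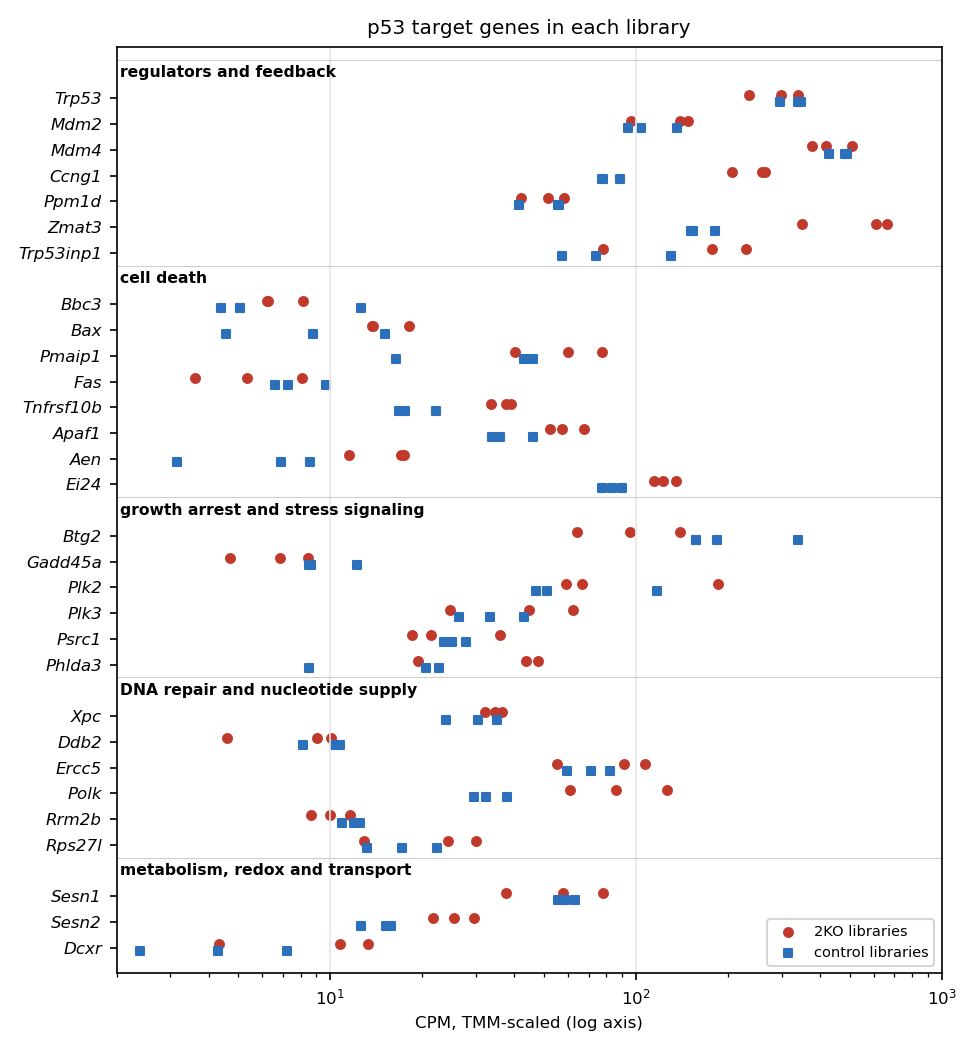
CPM of each tested member (x axis, log scale) in the 3 2KO libraries (red circles) and the 3 control libraries (blue squares), with the genes grouped by role down the page. Ccng1, Zmat3, Tnfrsf10b, Apaf1, Aen, Ei24, Polk and Sesn2 have every 2KO library above every control library, and Btg2 and Gadd45a have every 2KO library below.

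Among the regulators and feedback genes, 2 of 7 genes rose, Ccng1 and Zmat3, and 5 did not pass, Trp53 and Mdm2 among them. The share that rose was 28.6%, where 6.61% of all tested genes were called higher. Trp53 (chromosome 11, 69580359 to 69591873, plus strand, GRCm38) was at 298, 340 and 234 CPM in the 2KO libraries and at 338, 295 and 347 CPM in the control libraries. The groups overlapped, and the log2 fold change was -0.17 (SE 0.18, 95% interval -0.57 to 0.23, edgeR adjusted p = 0.671). The interval thus reaches neither a rise nor a fall by 1 on the log2 scale. Mdm2, which encodes the ubiquitin ligase of p53 and is one of its most direct targets, was at 148, 96.7 and 139 CPM in 2KO and at 136, 94.2 and 104 CPM in control libraries. These ranges overlapped almost entirely (log2 fold change 0.20, 95% interval -0.29 to 0.69, adjusted p = 0.679). Mdm4, which encodes a relative of MDM2 that blocks p53, was at 435 ± 66.6 CPM in 2KO and 467 ± 34.7 CPM in control libraries (SD, n = 3 each). Ppm1d, which encodes a phosphatase that switches p53 signaling off, was at 50.6 ± 8.18 and 51.0 ± 8.26 CPM. Its log2 fold change of -0.012 had a 95% interval from -0.50 to 0.47.

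Ccng1 (chromosome 11, 40748552 to 40755311, minus strand) encodes cyclin G1, which brings a phosphatase to MDM2. It was at 206, 265 and 258 CPM in the 2KO libraries and at 77.2, 88.5 and 78.3 CPM in the control libraries. Each group was tight, and the lowest 2KO library was far above the highest control library. The log2 fold change was 1.58 (SE 0.17, edgeR adjusted p = 0.00100), and Ccng1 passed in all 17 alternative fits, where its log2 fold change lay between 1.51 and 1.70. Its promoter holds the match printed above, which lies 195 to 176 bases before the RefSeq start.

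Zmat3 (chromosome 3, 32334792 to 32366014, minus strand) encodes a zinc finger protein that binds RNA. It was at 348, 608 and 662 CPM in the 2KO libraries and at 154, 181 and 151 CPM in the control libraries. The 2KO libraries were all higher, but spread more widely, with replicate 1 the lowest of them. The log2 fold change of 1.74 (SE 0.24, edgeR adjusted p = 0.00278) was the largest among the members. It missed the threshold in 1 of 17 alternatives, when replicate 3 of each group was left out (adjusted p = 0.0599).

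Trp53inp1, which encodes a nuclear stress protein that enhances p53 activity, was at 78.2, 178 and 230 CPM in 2KO and at 74.2, 131 and 57.2 CPM in control libraries. As for Zmat3 and Polk, 2KO replicate 1 was the lowest 2KO library, and it lay inside the control range. The log2 fold change was 0.89 (SE 0.40, edgeR adjusted p = 0.237), and no alternative brought it past the threshold.

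**Figure D3:**
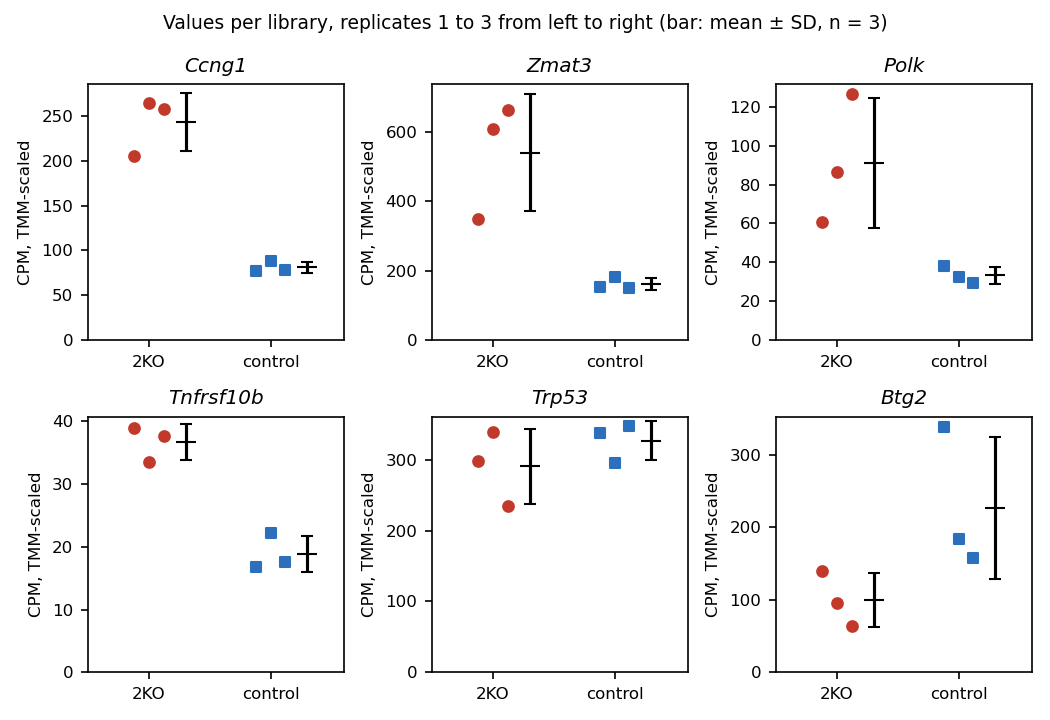
CPM per library (y axis, from 0) for Ccng1, Zmat3, Polk, Tnfrsf10b, Trp53 and Btg2, with 2KO libraries as red circles, control libraries as blue squares and bars for mean ± SD (n = 3 each). The first 4 genes rose in 2KO, Trp53 overlaps between the groups, and Btg2 lies lower in 2KO without passing the test.

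Among the 8 cell death genes, 1 rose (12.5%, where 6.61% of all tested genes were called higher) and 7 did not pass. The groups separated, with 2KO higher, for 4 of the 8, where 15.2% of all tested genes lay apart and higher. The one that rose was Tnfrsf10b (chromosome 14, 69767472 to 69784411, plus strand), which encodes the mouse receptor for the death ligand TRAIL. It was at 38.9, 33.5 and 37.6 CPM in the 2KO libraries and at 16.7, 22.1 and 17.6 CPM in the control libraries. The groups were tight and apart, with a log2 fold change of 0.96 (SE 0.22, edgeR adjusted p = 0.0242). Its log2 fold change lay between 0.85 and 1.09 over the alternatives. The call was lost in 7 of 17 alternatives, among them the fits without 2KO replicates 1, 2 or 3 (adjusted p = 0.0514, 0.0536 and 0.0586) and without control replicates 1 or 3 (0.0771 and 0.0992).

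Aen, which encodes a nuclease that degrades DNA in apoptosis, was at 17.0, 17.5 and 11.5 CPM in 2KO and at 3.16, 6.88 and 8.60 CPM in control libraries. Ei24, which encodes a membrane protein of the endoplasmic reticulum, was at 114, 135 and 122 CPM in 2KO and at 77.7, 83.5 and 90.3 CPM in control libraries, and its exons share 324 bases with Gm26787 on the opposite strand. Apaf1, the scaffold on which caspases are activated, was at 52.5, 57.3 and 67.6 CPM in 2KO and at 46.0, 33.8 and 36.0 CPM in control libraries. In all 3 genes every 2KO library lay above every control library, but none passed. Their log2 fold changes were 1.30, 0.57 and 0.62 (edgeR adjusted p = 0.0775, 0.0662 and 0.113). DESeq2 called Aen and Ei24 higher (adjusted p = 0.0147 and 0.0292).

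The genes that act at the mitochondrion showed no call. Pmaip1, which encodes NOXA, was at 77.6, 40.3 and 60.0 CPM in 2KO and at 46.0, 43.0 and 16.4 CPM in control libraries. Its groups overlapped (log2 fold change 0.75, 95% interval -0.11 to 1.62, adjusted p = 0.301). Bax, which encodes the protein that opens the outer mitochondrial membrane, was at 15.2 ± 2.52 CPM in 2KO and 9.46 ± 5.30 CPM in control libraries (adjusted p = 0.395). Exons of Bax share 192 bases with those of Gm45808 on the same strand, so reads there cannot be assigned to one of them. Bbc3, which encodes PUMA, a principal killer downstream of p53, was at 6.86 ± 1.09 CPM in 2KO and 7.36 ± 4.57 CPM in control libraries (log2 fold change -0.10, 95% interval -1.11 to 0.91). Control replicate 1 stood at 12.6 CPM and the other 2 control libraries at 4.39 and 5.07 CPM. Fas, the other death receptor, was at 5.67 ± 2.26 CPM in 2KO and 7.85 ± 1.59 CPM in control libraries, on the opposite side of 0 from Tnfrsf10b (log2 fold change -0.47, adjusted p = 0.567).

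None of the 6 tested genes of growth arrest and stress signaling passed, and they lay on both sides of 0. At an unadjusted p under 0.05, which 21.6% of all tested genes reached, Phlda3 was higher and Btg2 lower. Btg2 (chromosome 1, 134075170 to 134079120, minus strand), which encodes an antiproliferative protein that promotes mRNA deadenylation, was the member with the largest negative value. It was at 139, 95.8 and 64.3 CPM in the 2KO libraries and at 339, 184 and 158 CPM in the control libraries. Every 2KO library was lower, and control replicate 1 stood well above the other 2 control libraries. The log2 fold change was -1.19 (SE 0.34, edgeR adjusted p = 0.0634). It passed in 6 of 17 alternatives, among them DESeq2 (adjusted p = 0.00687) and the fit without 2KO replicate 1 (adjusted p = 0.0396). Without control replicate 1 its log2 fold change was -0.76 (adjusted p = 0.199).

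Btg2, Gadd45a, Plk2 and Plk3 are also induced as immediate early genes, which respond within minutes to growth factors, stress and tissue dissociation. Of a list of 13 other immediate early and dissociation genes, all had a log2 fold change below 0, with a median of -0.98, and 3 fell in 2KO (Fos, Jun and Zfp36). Their summed level ranged from 2971 to 6000 CPM in 2KO and from 5364 to 13453 CPM in control libraries. Fos was at 282, 307 and 245 CPM in 2KO and at 756, 429 and 446 CPM in control libraries. Zfp36 was at 518, 416 and 309 CPM in 2KO and at 1993, 822 and 761 CPM in control libraries. As with Btg2, control replicate 1 was the highest library for both genes, and the part of this response in the Btg2 values was not tested.

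Plk2, a kinase of the stress response, was at 186, 66.8 and 59.2 CPM in 2KO and at 117, 51.3 and 47.2 CPM in control libraries. Replicate 1 was the highest in both groups and the ranges overlapped (adjusted p = 0.603). Gadd45a, which encodes a stress sensor that binds the replication clamp, was at 8.47, 4.71 and 6.87 CPM in 2KO and at 12.3, 8.49 and 8.66 CPM in control libraries. The 2KO libraries were all lower, by a very small gap, and the gene did not pass (log2 fold change -0.55, adjusted p = 0.416). Its exons share 337 bases with E230016M11Rik on the opposite strand. Plk3 was at 43.9 ± 18.8 CPM in 2KO and 34.2 ± 8.33 CPM in control libraries, and its exons share 84 bases with Tctex1d4 on the opposite strand. So Gadd45a lay on the side of Btg2, and Plk2 and Plk3 on the other.

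**Figure D4:**
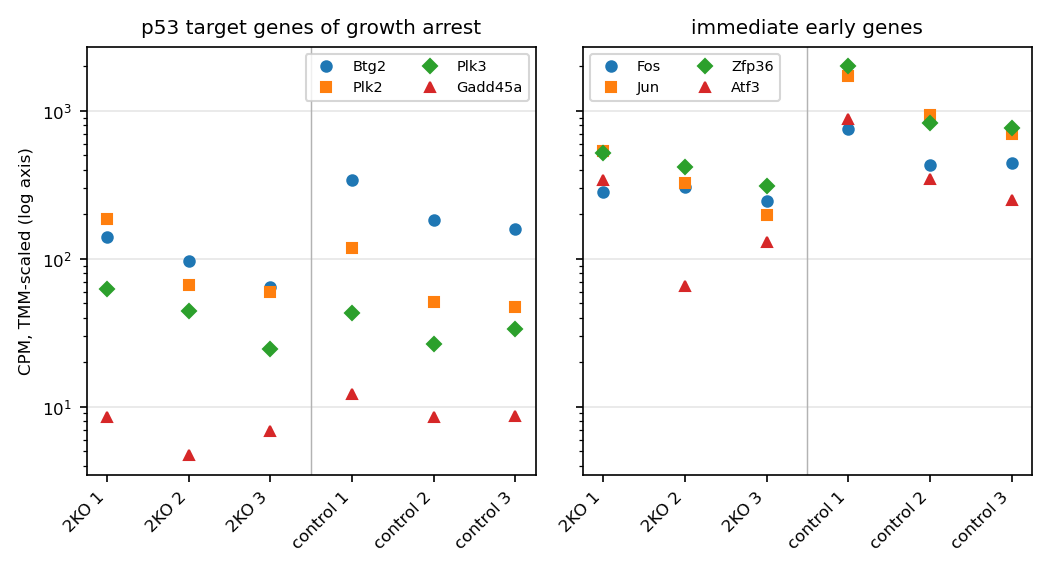
CPM (y axis, log scale) in each of the 6 libraries (x axis, 2KO left of control) for Btg2, Plk2, Plk3 and Gadd45a (left panel) and for Fos, Jun, Zfp36 and Atf3 (right panel). Control replicate 1 is the highest library for Btg2, with 339 CPM, and for Fos, Jun, Zfp36 and Atf3.

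Phlda3, which encodes an inhibitor of the survival kinase AKT, was at 47.7, 43.5 and 19.4 CPM in 2KO and at 8.51, 22.7 and 20.5 CPM in control libraries. Of the 2KO libraries 2 stood above all others, but replicate 3 lay inside the control range (log2 fold change 1.10, SE 0.43, adjusted p = 0.165). Psrc1, which encodes a protein of spindle microtubules, was at 25.3 ± 9.30 CPM in 2KO and 25.4 ± 2.15 CPM in control libraries (log2 fold change -0.0087, 95% interval -0.64 to 0.62).

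Of the 6 genes of DNA repair and nucleotide supply, Polk rose (16.7%, where 6.61% of all tested genes were called higher) and 5 did not pass. Polk lies on the minus strand of chromosome 13, from 96480690 to 96542579. It was at 60.7, 86.2 and 127 CPM in the 2KO libraries and at 38.0, 32.4 and 29.6 CPM in the control libraries. All 2KO libraries were higher, with a wider spread than the control libraries. The log2 fold change was 1.45 (SE 0.27, edgeR adjusted p = 0.0109), and the call was lost in 1 of 17 alternatives, when replicate 3 of each group was left out (adjusted p = 0.113). Its printed match lies before an internal start, and no match was found at the outermost start.

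The nucleotide excision repair genes gave no such difference. Xpc, whose product finds distorted DNA, was at 34.4 ± 2.16 CPM in 2KO and 29.8 ± 5.72 CPM in control libraries. Ercc5, which encodes the nuclease that cuts beside the damage, was at 84.7 ± 26.8 CPM in 2KO and 71.2 ± 11.4 CPM in control libraries. Ddb2, whose product recognises ultraviolet damage, was at 7.91 ± 2.92 CPM in 2KO and 9.75 ± 1.39 CPM in control libraries, and its exons share 652 bases with Acp2 on the opposite strand. The adjusted p-values of these 3 genes were 0.675, 0.660 and 0.717. Rrm2b, which encodes a ribonucleotide reductase subunit that supplies nucleotides for repair, was at 10.1 ± 1.51 CPM in 2KO and 11.8 ± 0.785 CPM in control libraries, and its exons share 734 bases with Gm49085 on the opposite strand. Its 95% interval ran from -0.84 to 0.39 on the log2 scale. Rps27l, which encodes a ribosomal protein close to RPS27, was at 24.2, 30.0 and 12.9 CPM in 2KO and at 13.2, 17.1 and 22.3 CPM in control libraries, with overlapping groups (adjusted p = 0.641). Its reads may be shared with copies of Rps27.

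No gene of metabolism, redox and transport passed. At an unadjusted p under 0.05, which 21.6% of all tested genes reached, only Sesn2 was higher. Sesn2, which encodes a sestrin that restrains the growth kinase complex mTORC1, was at 21.8, 29.5 and 25.4 CPM in 2KO and at 15.8, 12.6 and 15.2 CPM in control libraries. The groups were apart, at a log2 fold change of 0.82 (SE 0.24, edgeR adjusted p = 0.0674), and DESeq2 called it (adjusted p = 0.0191). Sesn1, which encodes its relative, was at 37.6, 57.7 and 78.0 CPM in 2KO and at 63.4, 58.7 and 55.7 CPM in control libraries, with the control range inside that of 2KO (adjusted p = 0.965). Sesn2 and Gdf15 are also targets of ATF4, the factor of the integrated stress response. None of 11 other genes of that response passed by edgeR. Ddit4 was higher and Ddit3 lower at an unadjusted p under 0.05, which 21.6% of all tested genes reached. DESeq2 called both (adjusted p = 0.0239 and 0.0299). Over the 11 genes the median log2 fold change was -0.043. Dcxr, which encodes a reductase of sugars and dicarbonyls, was at 4.31, 13.3 and 10.8 CPM in 2KO and at 4.29, 2.39 and 7.19 CPM in control libraries (adjusted p = 0.299).

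**Figure D5:**
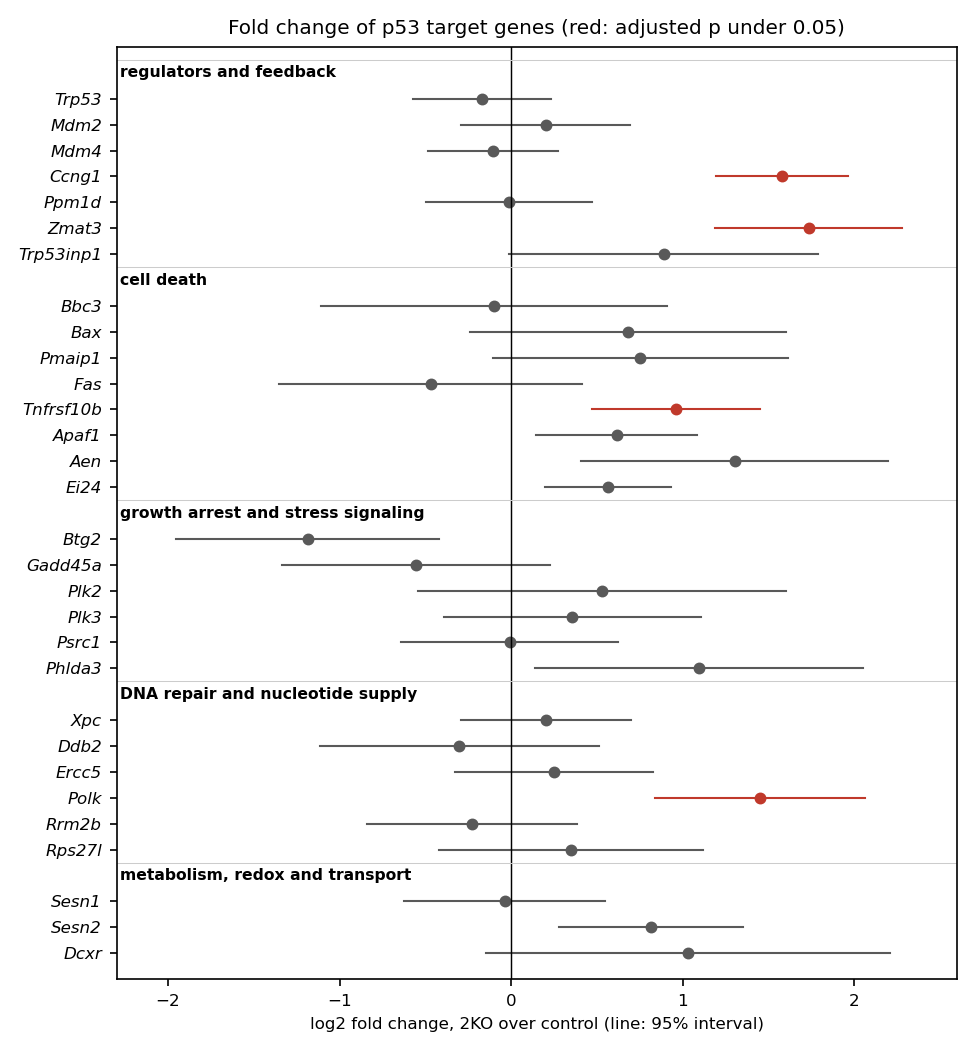
Log2 fold change of 2KO over control (x axis) with its 95% interval (lines) for the 30 tested members, by role, with genes past the threshold in red. The intervals of Ccng1, Zmat3, Polk and Tnfrsf10b lie above 0, those of Trp53, Mdm2 and Mdm4 span it, and that of Btg2 lies below 0 although its adjusted p was 0.0634.

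Other genes of the pathway were taken from a pair of further lists. Of 22 upstream and partner genes tested, 2 rose, 1 fell and 19 did not pass. In either direction 13.6% of this list passed, where 9.02% of all tested genes did. Cdkn2a, which encodes both the cell cycle inhibitor INK4A and the p53 activator ARF, had 65, 17 and 29 counts in 2KO replicates 1, 2 and 3 and 0 counts in every control library. The pooled 2KO level of 1.37 CPM was 41.0-fold above a floor of 3 counts over the control group (edgeR adjusted p = 0.0166). This fold allows for counting error in the control group only, and not for the spread between the 2KO libraries. Most of the Cdkn2a counts came from 2KO replicate 1, and without it the fold above the floor was 24.8. Counts over the gene do not separate the 2 products. The call was lost in 4 of the 16 alternatives that gave it a value. Among them were the fits with Xist as a covariate (edgeR adjusted p = 0.0543) and without 2KO replicate 1 (0.0541).

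Hipk2, which encodes a kinase that phosphorylates p53, was at 402, 390 and 360 CPM in 2KO and at 228, 261 and 221 CPM in control libraries. It was higher in each 2KO library, with a log2 fold change of 0.70 (SE 0.15, edgeR adjusted p = 0.0207). Chek1, which encodes a checkpoint kinase active in replicating cells, was at 13.1, 14.3 and 9.30 CPM in 2KO and at 31.4, 21.7 and 25.5 CPM in control libraries. It was lower in each 2KO library (log2 fold change -1.10, SE 0.27, edgeR adjusted p = 0.0341). The call of Hipk2 was lost without 2KO replicate 2 (adjusted p = 0.0622) and without control replicates 1, 2 or 3 (0.0538, 0.0503 and 0.101). That of Chek1 was lost without 2KO replicates 1, 2 or 3 (0.0606, 0.0654 and 0.102) and without control replicates 1 or 3 (0.128 and 0.0931). The p53 relatives Trp63 and Trp73 did not pass. Trp63 was at 1256 ± 87.0 CPM in 2KO and 1798 ± 137 CPM in control libraries (edgeR adjusted p = 0.0872), and DESeq2 called it lower (adjusted p = 0.0360).

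Of 29 other target genes tested, 2 rose and 27 did not pass, with a median log2 fold change of 0.32. The share that rose was 6.90%, close to the 6.61% of all tested genes. Eda2r, which encodes a receptor of the ectodysplasin family, was at 7.41, 8.21 and 11.6 CPM in 2KO and at 2.77, 3.91 and 2.55 CPM in control libraries. Ptp4a3, which encodes a phosphatase, was at 31.7, 31.2 and 18.8 CPM in 2KO and at 5.07, 10.3 and 9.42 CPM in control libraries. The groups were apart for both, with log2 fold changes of 1.56 and 1.72 (edgeR adjusted p = 0.0323 and 0.0143). Eda2r lost its call in 7 of 17 alternatives. Among them were the fits without 2KO replicates 2 or 3 (edgeR adjusted p = 0.0734 and 0.107) and without control replicates 1, 2 or 3 (0.0880, 0.0516 and 0.115). Ptp4a3 lost its call in 3 of 17, among them the fit without 2KO replicate 2 (0.0532). Cdkn1a, which encodes the cell cycle inhibitor p21 and is the best known target of p53, was at 381, 409 and 276 CPM in 2KO and at 246, 215 and 377 CPM in control libraries. Its groups overlapped, with control replicate 3 among the high libraries (log2 fold change 0.35, SE 0.24, edgeR adjusted p = 0.466). The promoter of Cdkn1a holds a match with 0 mismatches, 73 to 42 bases before the start. None of the genes of this list fell by edgeR. Ephx1 and Slc19a2 were higher and Pidd1 lower at an unadjusted p under 0.05, which 21.6% of all tested genes reached. DESeq2 called these 3 as well, Ephx1 and Slc19a2 higher (adjusted p = 0.0162 and 0.0332) and Pidd1 lower (adjusted p = 0.0433).

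Genes of other cell types differed between the groups in part, and in bulk RNA a change in the share of a cell type cannot be told from a change within cells. Krt1 and Krt10, keratins of differentiating interfollicular epidermis, were the most abundant of the 4 tested genes of that list. Krt10 was at 232, 1053 and 807 CPM in 2KO and at 1149, 3037 and 4071 CPM in control libraries, with the groups apart. Krt1 was at 1475 ± 821 CPM in 2KO and 4666 ± 2615 CPM in control libraries (SD, n = 3 each). Neither passed by edgeR (adjusted p = 0.0598 for Krt10 and 0.101 for Krt1), and DESeq2 called both lower (adjusted p = 0.000627 and 0.00549). Lor went the other way, at 27.7 ± 20.6 CPM in 2KO and 16.5 ± 12.5 CPM in control libraries. Its log2 fold change was 0.75 (edgeR adjusted p = 0.660), and that of Ivl was -0.49 (edgeR adjusted p = 0.851). Over the 4 genes the median log2 fold change was -1.08. Of 5 tested Merkel cell genes Krt18 and Piezo2 rose, and Krt20, Krt8 and Isl1 had log2 fold changes of -2.56, -0.98 and -0.51. Krt20 was called lower by DESeq2 (adjusted p = 0.0354) but not by edgeR (adjusted p = 0.119). The summed Merkel level, in 2KO mostly that of Krt18 and Piezo2, was 54.5 to 90.5 CPM in 2KO and 15.8 to 25.5 CPM in control libraries, while Atoh1, the defining factor, was at most 0.196 CPM in 2KO and 3.49 CPM in control libraries. Cd207, a marker of Langerhans cells, was at 0 in all 6 libraries. Of 11 tested fibroblast genes Pdgfra and Thy1 rose, and the summed level was 756 to 915 CPM in 2KO and 525 to 927 CPM in control libraries. No tested immune (7), melanocyte (6) or endothelial (5) gene passed by edgeR. The endothelial gene Kdr was higher at an unadjusted p under 0.05, which 21.6% of all tested genes reached, and by DESeq2 (adjusted p = 0.0201). The summed level was at most 23.6, 66.7 and 15.2 CPM for these lists in 2KO and at most 24.9, 35.3 and 11.2 CPM in control libraries. The part of these cells in the values of the p53 target genes was not tested.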

How the data were processed

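RNA was measured in 6 libraries, 3 labelled 2KO and 3 control. Per the labels' protocols, 10 ng of RNA from the sorted cells was amplified by a whole-transcriptome cDNA kit, and no molecular identifiers are mentioned. The authors deposited raw read counts per gene. The submitters' processing notes name the mm10 build and the tools HTSeq 0.6.1, TopHat2 2.0.13, DESeq2 1.6.3 and Cufflinks 2.2.1. No source used here gives their roles, the annotation or the strand setting, so reads of genes that overlap on opposite strands may be mixed.

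Low genes were removed with filterByExpr in edgeR 4.0.16 under R 4.3.3, libraries were scaled by TMM, and the quasi-likelihood test set 2KO against control over all genes, with no covariate. A standard error is the size of the log2 value over the root of its F statistic. Alternatives used DESeq2 1.42.0, limma 3.58.1 (voom), other scalings, filters and covariates, and left libraries out. The script was tested on simulated counts. Coordinates and exon lengths are those of GENCODE vM21 (GRCm38), and promoter sequences those of RefSeq. The members, gene lists and alternatives were chosen with earlier results of these data known, and the p53 site search after seeing the values. All 32 members are named, and of the other pathway genes Cdkn1a, Cdkn2a and those past the threshold. Trp63, Pidd1, Ephx1, Slc19a2, Kdr, Ddit3, Ddit4 and the marker genes were named after their values were seen.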

Additional observations from a re-analysis of the deposited data

How the results depend on the processing

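Of 611 single-gene values over 17 alternatives, 542 kept their direction and side of the threshold, 37 lost and 9 gained a call, and 23 changed sign without being called. Members called higher and lower numbered 4 and 0 in the main analysis, 7 and 1 with DESeq2, and 1 and 0 without either replicate 3 (the replicate-3 libraries of both groups). Btg2 was lower (1 member) with limma-voom, with no low-count filter, with the replicate block and without either replicate 1. Leaving out 1 library gave 3 to 4 members higher, 0 to 1 lower and a members' median log2 fold change of 0.26 to 0.56. Over all genes, called lower were 362 in the main analysis, 733 with DESeq2 and 237 with Xist as a covariate. Without either replicate 3, 309 were higher and 72 lower. Leaving out 1 library gave 615 to 854 higher and 184 to 347 lower. Upstream genes called higher and lower (2 and 1) were 2 lower with DESeq2 and with limma-voom, and 1 higher with the 1 CPM filter, where Cdkn2a had no value. They were 1 and 0 with the Xist term and without either replicate 1, and 0 and 0 without either replicate 3. The upstream gene called higher was Hipk2 with the Xist term, but neither Hipk2 nor Cdkn2a without either replicate 1. Leaving out 1 library gave 1 to 2 higher and 0 to 1 lower. Other targets called higher and lower (2 and 0) were 4 and 1 with DESeq2, 0 higher without either replicate 3 and 0 and 1 without either replicate 1. They were 1 lower with the replicate block, and 0 to 3 higher and 0 to 1 lower on leaving out 1 library. The cause was not tested.

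Values that changed sign, none of them called, were those of Bbc3 (log2 fold change 0.071 with limma-voom, 0.11 with the Xist covariate, 0.055 with the replicate block, 0.42 without either replicate 1), Ppm1d (0.14 with the Xist covariate, 0.19 without either replicate 1), Sesn1 (0.088 and 0.26 in these same fits), Rps27l (-0.023 with the Xist covariate), Psrc1 (0.044 without either replicate 3 and 0.26 without either replicate 1), Trp53 (0.011 without either replicate 3) and Mdm4 (0.028 without either replicate 1). Leaving out 1 library gave -0.37 to 0.56 for Bbc3, -0.14 to 0.11 for Ppm1d, -0.18 to 1.09 for Plk2, -0.34 to 0.18 for Psrc1 and -0.29 to 0.21 for Sesn1. The labels pair no libraries. Deviations of same-numbered libraries from the group means correlated at 0.334, 0.0982 and -0.157 for replicates 1, 2 and 3, and 2KO replicate 2 correlated best with control replicate 3 (0.335). On the second principal component both replicate-1 libraries stood apart (47.3 in 2KO and 28.8 in control, the other 4 from -21.7 to -16.3). The replicate block left the 4 higher members called and added Btg2 (adjusted p = 0.00229). With 3 libraries a group, members at a few CPM have wide intervals.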
